A study of Mus musculus with 2 samples.

Results

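The miR-26 family of the mouse consists of 3 miRNA genes, Mir26a-1, Mir26a-2 and Mir26b, and its reads were followed here in small RNA libraries of 2 populations of spleen cells from C57BL/6J mice. Cells had been enriched from the spleen with CD11c microbeads, stained for Ia, the MHC class II molecule, with a FITC-labelled antibody, and sorted at over 95% purity by their Ia level into a population called Ia high here (CD11c+Ia high cells) and one called Ia low (CD11c+Ia low cells). The labels call both populations dendritic cells and name no treatment, allele or age. With 1 library for each population, nothing could be checked against replicates, and no test between them was run. Of 1178 annotated miRNA hairpin genes searched, the family makes up 3. A read was taken as a member's when its sequence (a tag) of 18 to 30 nt was equal to a stretch of the member's hairpin, either directly or after 1 to 3 nt had been trimmed from its 3' end. This gave 175 tags with 147245 reads in Ia high and 102 tags with 76435 reads in Ia low.

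A miRNA is cut from a hairpin by Drosha and Dicer, and 1 arm of the duplex, here mostly the 5p arm, is loaded into an Argonaute protein. The loaded strand pairs with mRNAs mainly through its seed, bases 2 to 8. The miR-26 family is expressed in many tissues and is known as a regulator of cell cycle and chromatin genes such as Ezh2. All 3 genes lie within introns of genes for small C-terminal domain phosphatases. The mature 5p strand of miR-26 is also a known substrate of the terminal uridylyltransferase Tut4 (Zcchc11), which adds uridines to its 3' end. For that reason 3' ends were counted separately here.

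Mir26a-1 lies on chromosome 9 (GRCm38, chr9:119031796-119031885, plus strand) in intron 5 of Ctdspl. Mir26a-2 lies on chromosome 10 (chr10:126995530-126995613, plus strand) in intron 5 of Ctdsp2, and its last base is also the first base of an exon in 2 of the 4 annotated Ctdsp2 transcripts. Mir26b lies on chromosome 1 (chr1:74394310-74394394, plus strand) in intron 4 of Ctdsp1. The hairpins, from RefSeq (GRCm38.p6) and equal to those of the GENCODE M21 annotation, are shown with the mature arms in capitals, because they carry the bases by which the genes can or cannot be told apart.
Mir26a-1: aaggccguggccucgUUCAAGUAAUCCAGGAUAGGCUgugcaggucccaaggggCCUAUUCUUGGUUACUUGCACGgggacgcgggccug
Mir26a-2: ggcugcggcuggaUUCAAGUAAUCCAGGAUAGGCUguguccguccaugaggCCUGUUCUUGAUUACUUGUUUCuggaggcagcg
Mir26b: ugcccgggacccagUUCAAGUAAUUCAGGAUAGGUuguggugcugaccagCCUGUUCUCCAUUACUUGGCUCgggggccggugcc

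The mature strands from RefSeq are given with the seed in capitals.
miR-26a-5p: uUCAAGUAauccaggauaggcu
miR-26b-5p: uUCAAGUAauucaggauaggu
miR-26a-1-3p: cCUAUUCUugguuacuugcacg
miR-26a-2-3p: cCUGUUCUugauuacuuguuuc
miR-26b-3p: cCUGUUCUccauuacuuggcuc
The seed of the 5p strands was shared by no other of the 1679 mature mouse miRNAs in the RefSeq table. Counted from the 5' end, miR-26b-5p differs from miR-26a-5p by C11U and C21U, and its RefSeq entry is 21 nt long against 22 nt. Both miR-26a genes give the same 5p strand. Their 3p strands differ by A4G, G11A, C19U, A20U, C21U and G22C (Mir26a-1 first), so the seeds of miR-26a-2-3p and miR-26b-3p are the same and that of miR-26a-1-3p is not.

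The Ia high library held 16388303 reads and the Ia low library 13739811, of which 5846363 and 2690905 matched miRNA hairpins directly. Levels below are CPM, reads scaled to 1000000 direct miRNA reads, and 3 reads, the limit that a count of 0 reads allows, are 0.513 CPM in Ia high and 1.11 CPM in Ia low. Tags were most often read 4 times in Ia high and 9 times in Ia low, tags read once apart, and no molecular identifiers were used. The exact (Clopper-Pearson) 95% intervals were therefore computed after dividing read counts by these numbers, and they cover counting error only. For 0 reads in Ia low this widened interval reaches 12.3 CPM. Ia high miRNA reads were shorter, with 0.831% at 19 nt and 5.49% at 20 nt against 0.150% and 1.54%, whereas 24 nt reads made up 5.31% and 10.3%. The labelled cell type was checked with mRNA fragments among the tags. By the 2-fold rule given below, 6.35% of all measured genes were higher and 8.52% lower in Ia low. Of 7 dendritic cell markers 5 were lower, but 4 of the 7 (H2-Aa, H2-Ab1, H2-Eb1 and Cd74) encode MHC class II or its invariant chain, on which the cells were sorted, and 3 of these are among the 5. They summed to 1235 and 703 fragments per 100000 in Ia high and Ia low. The other 3 summed to 169 and 65.0: Flt3 (163 and 6 fragments) and Zbtb46 (56 and 1) were lower by the rule, and Itgax, which encodes CD11c (322 and 79), was not. With reads in place of fragments, which counts repeats of a tag, Itgax and Cd74 were also lower. Their ratios by reads, Ia low over Ia high, were 0.480 and 0.391, and those of H2-Aa, H2-Ab1 and H2-Eb1 were 0.282, 0.221 and 0.222. Of 8 markers of Ly6C-low monocytes, 7 were higher in Ia low, and their sum was 506 and 1301 per 100000. Of 24 markers of B, T, NK, neutrophil, erythroid and platelet cells, only 2, 1, 1, 2, 0 and 0 reached 10 fragments in both libraries together. Among these, Tcf7 was lower (32 and 0 fragments) and Csf3r higher (15 and 36). The B cell markers Ms4a1 (10 and 0) and Pax5 (11 and 1) were lower, and Mmp8 (5 and 5) higher, only when reads were counted in place of fragments. Cd3e, Cd3d, Cd3g and Trac had 0 fragments in both. In these bulk libraries fewer cells of a type and less RNA per cell cannot be told apart, and the part of this difference in the miR-26 values was not tested.

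miR-26a-5p was one of the more abundant miRNAs of both populations and had nearly the same level in each. It had 104953 direct reads in Ia high and 48285 in Ia low. These made 17952 CPM (17737 to 18168) in Ia high and 17944 CPM (17471 to 18426) in Ia low, the rank of 11 among miRNA arms in both. Ia low over Ia high, the ratio of CPM was 0.9996 (0.970 to 1.03).

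miR-26b-5p, with the same seed, was the second strand of the family and somewhat higher in Ia low. Its reads numbered 14095 in Ia high and 7776 in Ia low. The level was 2411 CPM (2332 to 2492) in Ia high, at rank 41, and 2890 CPM (2700 to 3089) in Ia low, at rank 32. These intervals did not overlap, and the ratio was 1.20 (1.11 to 1.29).

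The 3p strands were scarce in both libraries. miR-26b-3p had 280 reads in Ia high and 170 in Ia low, or 47.9 CPM (37.3 to 60.5) and 63.2 CPM (38.0 to 98.8), with intervals that overlapped. miR-26a-2-3p had 12 and 7 reads, and miR-26a-1-3p had 3 and 0. No ratio could be given for miR-26a-1-3p, since both libraries were at or under the floor of 3 reads. Thus 50.3 reads of miR-26b-5p (39.7 to 64.7) stood against 1 read of its 3p strand in Ia high and 45.7 (29.1 to 76.5) in Ia low. For miR-26a, with the 3p reads of both genes added, there were 6997 5p reads per 3p read in Ia high and 6898 in Ia low, resting on 15 and 7 reads of the 3p strands.

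**Figure D1:**
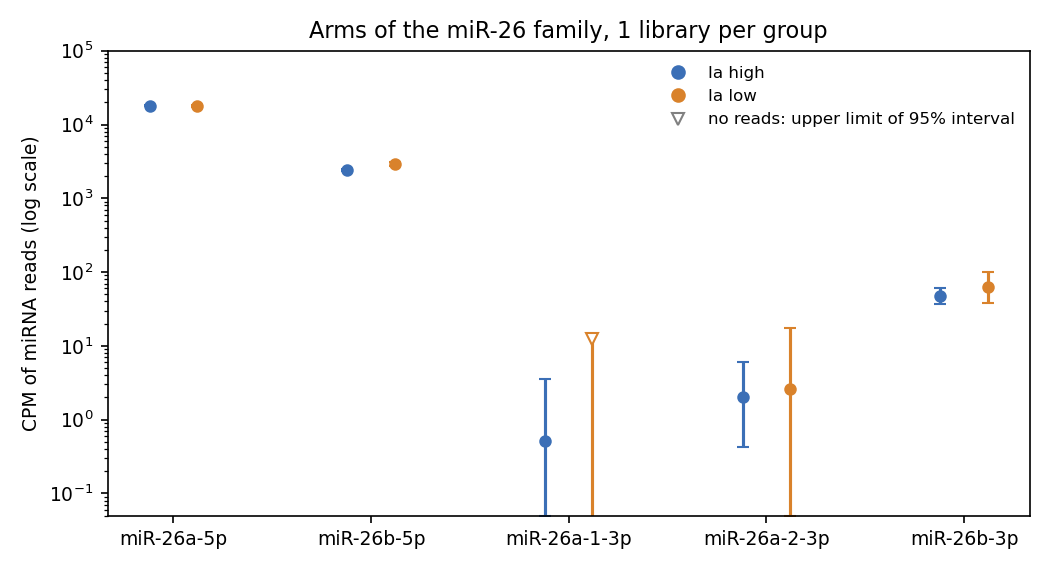
Level of each mature strand of the miR-26 family in CPM of miRNA reads (log axis) in the Ia high and the Ia low library, with 95% counting intervals after dividing counts by 4 and 9 (lower ends cut off at the axis). miR-26a-5p lay at 17952 and 17944 CPM, while miR-26a-1-3p had no read in Ia low and is drawn at the upper end of its widened interval, 12.3 CPM.

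Of the family's strands, miR-26a-5p, miR-26b-5p and miR-26b-3p averaged at least 10 CPM, and 0 of these 3 differed by the 2-fold rule, a ratio of at least 2-fold with an unwidened interval that excluded 1. Among the 238 miRNA arms above that level, 41.6% did so, 8.82% with a higher and 32.8% with a lower level in Ia low. The median arm had a log2 ratio of -0.39, so miR-26a-5p lay 0.39 and miR-26b-5p 0.65 above the median arm on the log2 scale. Scaled to all reads of the library in place of miRNA reads, which shifts every arm by -0.87 on the log2 scale, the ratio was 0.549 for miR-26a-5p and 0.658 for miR-26b-5p, so the direction for miR-26b-5p depends on the scaling. With reads weighted for the difference in length between the libraries, the ratios were 1.04 and 1.31.

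The strands with the ratio most like that of miR-26a-5p, among the 54 arms that averaged at least 1000 CPM, were miR-10b-5p, let-7d-5p, miR-150-5p, let-7i-5p and miR-103-3p. Likeness was the distance between log2 ratios over only 2 libraries. Their ratios ran from 0.945 for miR-103-3p (3078 and 2910 CPM) to 1.05 for let-7i-5p (65980 and 69591 CPM), with miR-10b-5p at 1415 CPM in both.

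The balance of the miR-26 strands does not depend on scaling, since both sides come from the same library. In Ia high there were 7.45 reads of miR-26a-5p per read of miR-26b-5p (7.19 to 7.71), and in Ia low 6.21 (5.78 to 6.68). miR-26b-5p thus made up a larger part of the reads with this seed in Ia low, and the intervals did not overlap. The 22 nt miR-26a-5p tag with the substitution C11U alone was read 27 times in Ia high and 16 times in Ia low. It keeps C21, so it was counted as miR-26b-5p only after its last 2 bases, CT, had been trimmed. The main miR-26b-5p tag, with 10961 and 6250 reads, differs from miR-26a-5p by C11U and C21U together. The C11U count therefore does not measure misreading into that tag.

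Few reads told Mir26a-1 and Mir26a-2 apart, and most of them came from Mir26a-2. All 3p tags of both genes are shown, with capitals at the positions where the 3p strands of the genes differ.
Mir26a-1 3p, 3 reads in Ia high: cctAttcttgGttacttgCACG
Mir26a-2 3p, 6 reads in Ia high: cctGttcttgAttacttgTTTC
Mir26a-2 3p, 6 reads in Ia high: gaggcctGttcttgAttacttgTT
Mir26a-2 3p, 7 reads in Ia low: ctGttcttgAttacttgTTTC
Mir26a-1 thus gave 3 of the 15 3p reads in Ia high, 20% (exact interval on reads 4.33 to 48.1), and 0 of 7 in Ia low, with an upper limit of 41.0%. A few 5p tags ran past the stretch that both hairpins share: 8 reads in Ia high and 7 in Ia low came from Mir26a-2, and 0 from Mir26a-1. The 12 Ia high 3p reads of Mir26a-2 belong to 2 tags, and the 7 Ia low reads to 1 tag. Its 5p reads likewise belong to 2 tags in Ia high and 1 tag in Ia low. Of the 8 in Ia high, 7 are set apart only by 1 more base at the 5' end. Fewer molecules than reads may therefore stand behind all these counts. At this depth no difference between the populations in the use of the miR-26a genes was detectable. The 3p reads do not measure how much 5p strand each gene gave.

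The 5' end of the 5p strands, which sets the seed, was nearly fixed. In Ia high 99.7% of direct miR-26a-5p reads began at base 1 of the RefSeq strand, and in Ia low 99.8%. The corresponding shares for miR-26b-5p were 99.89% and 99.99%. Reads that began at base 2 and so had a seed shifted by 1 base numbered 296 and 97 for miR-26a-5p.

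Lengths varied at the 3' end. Among direct reads, 22 nt was the main length of miR-26a-5p, with 89.7% in Ia high and 90.9% in Ia low. A 19 nt form differed most between the libraries. It was read 1012 times in Ia high, 0.964% of direct reads (0.850 to 1.09), and 14 times in Ia low, 0.0290% (0.00225 to 0.121). All miRNA reads of 19 nt were fewer in Ia low, but the direct 19 nt form of miR-26a-5p was lower beyond that. As a share of all direct miRNA reads of 19 nt, its ratio was 0.166. This ratio has no interval, and its 14 Ia low reads belong to 1 tag. Direct reads also leave out reads with an untemplated end on the same 19 nt core. With these included, the core from base 1 had 1281 reads in Ia high, 273 of them with such an end. In Ia low it had 85 reads, 71 of them with such an end. The 23 nt direct form, with 1 more hairpin base, had 2925 reads (2.79%) and 1793 reads (3.71%).

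Direct reads of miR-26b-5p were most often 22 nt (77.8% in Ia high and 80.4% in Ia low), 1 nt longer than the RefSeq strand. The hairpin has a U at this place, so an added uridine cannot be told apart from a templated one, and the 22 nt form was counted as templated. The 21 nt RefSeq form took 15.1% and 13.8%. Unlike miR-26a-5p, the 20 nt form was common, at 4.68% and 4.30%. miR-26b-3p was 22 nt long in 157 of 280 direct reads in Ia high and in 141 of 170 in Ia low, and 21 nt long in 111 and 29. The widened intervals for the 22 nt share, 43.7% to 67.9% and 58.9% to 96.0%, overlapped.

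**Figure D2:**
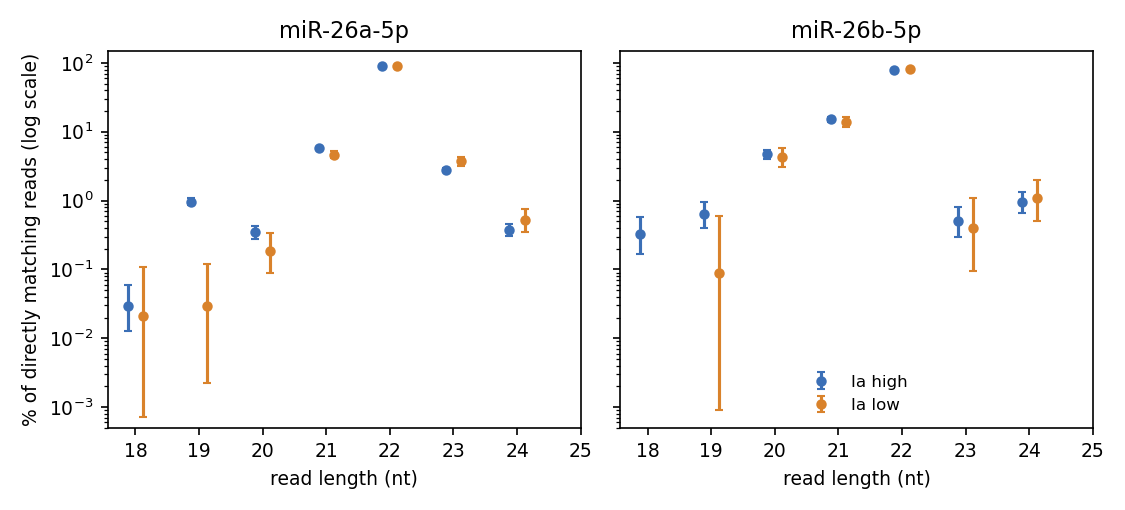
Share of directly matching reads at each length (log axis) for miR-26a-5p and miR-26b-5p in the Ia high and the Ia low library, with widened 95% counting intervals. The 22 nt form led in all 4 cases, and the 19 nt form of miR-26a-5p was at 0.964% in Ia high and 0.0290% in Ia low.

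Many 5p reads carried bases at the 3' end that the hairpin does not encode. The most common forms of each strand are shown, with the untemplated base in capitals and T standing for U.
miR-26a-5p, 22 nt, templated: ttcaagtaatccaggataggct
miR-26a-5p, 1 uridine: ttcaagtaatccaggataggctT
miR-26a-5p, 1 adenine: ttcaagtaatccaggataggctA
miR-26a-5p, 2 uridines: ttcaagtaatccaggataggctTT
miR-26a-5p, 19 nt, templated: ttcaagtaatccaggatag
miR-26b-5p, 22 nt, templated: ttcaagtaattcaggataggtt
miR-26b-5p, 1 uridine: ttcaagtaattcaggataggttT
miR-26b-5p, 1 adenine: ttcaagtaattcaggataggttA
In Ia high these tags had, in this order, 94172, 15778, 2557, 1037 and 1008 reads for miR-26a-5p. The Ia low reads of the same tags numbered 43846, 13062, 1273, 1009 and 14. The 3 tags of miR-26b-5p had 10961, 1203 and 1716 reads in Ia high and 6250, 1121 and 1085 in Ia low. Uridine was the leading addition to miR-26a-5p in both libraries, whereas on miR-26b-5p adenine led in Ia high and the 22 nt strand had about as many uridines as adenines in Ia low.

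Uridylated miR-26a-5p was more frequent in Ia low. Of all miR-26a-5p reads, tailed ones included, 18.4% (18.0 to 18.8) had an untemplated end in Ia high and 26.5% (25.5 to 27.5) in Ia low. The difference lay in uridine: a single uridine was carried by 12.5% (12.1 to 12.9) in Ia high and 20.02% (19.11 to 20.96) in Ia low, a ratio of 1.60 (1.51 to 1.70). A single adenine was carried by 2.58% (2.41 to 2.75) and 2.29% (1.96 to 2.66), a ratio of 0.891 (0.750 to 1.05). On cores that were templated up to base 22, the uridine share was 13.6% (13.23 to 14.02) and 21.6% (20.6 to 22.6).

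For miR-26b-5p the total share of untemplated ends was 22.9% (21.7 to 24.1) in Ia high and 26.4% (23.9 to 29.0) in Ia low, with intervals that overlapped slightly and a ratio of 1.15 (1.01 to 1.31). A single uridine was carried by 6.70% (5.99 to 7.47) and 10.6% (8.91 to 12.5), a ratio of 1.58 (1.28 to 1.96). For a single adenine the shares were 12.6% (11.7 to 13.6) and 13.1% (11.2 to 15.2), a ratio of 1.04 (0.865 to 1.24). Both 5p strands thus had a larger uridine share in Ia low by nearly the same ratio, and for adenine the interval of each ratio held 1. miR-26b-3p, with 330 and 198 reads in all, had an untemplated end in 15.2% (8.20 to 24.7) and 14.1% (3.14 to 35.5), too few reads to show a difference of the size seen on the 5p strands.

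**Figure D3:**
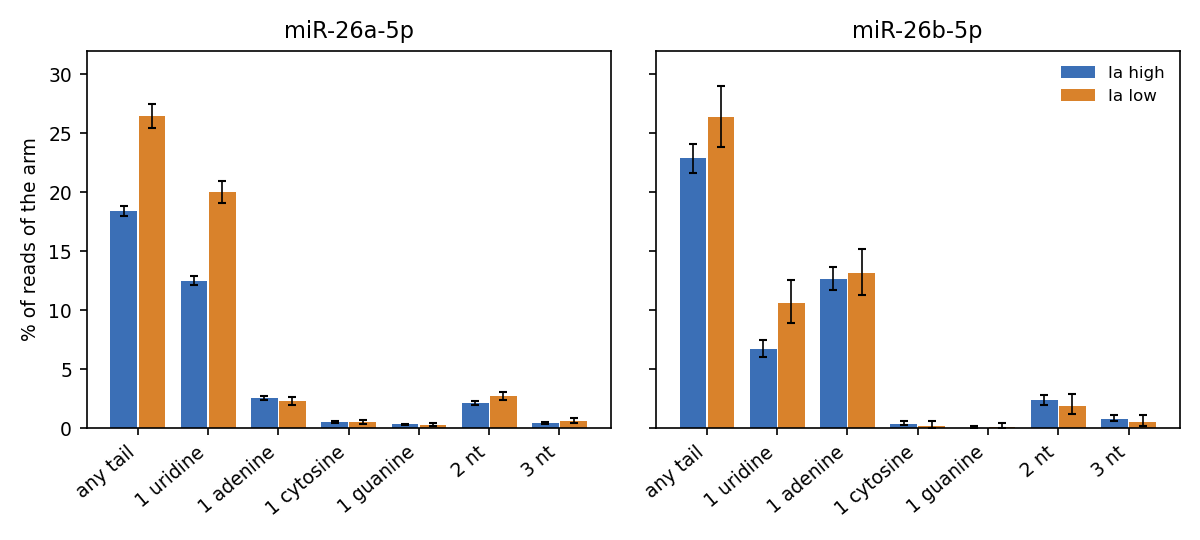
Share of all reads of miR-26a-5p and miR-26b-5p that carry an untemplated 3' end of each kind in the Ia high and the Ia low library, with widened 95% counting intervals. The bars for 1 uridine stand at 12.5% and 20.02% for miR-26a-5p and at 6.70% and 10.6% for miR-26b-5p, and those for 1 adenine have overlapping intervals.

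Because Ia low reads were longer in general, the tails were also compared among reads of 23 nt alone, a setting chosen after the data had been seen. Of 22057 such miR-26a-5p reads from base 1 in Ia high, 71.5% (70.3 to 72.7) ended in 1 untemplated uridine, 11.6% (10.8 to 12.5) in 1 untemplated adenine and 13.1% (12.3 to 14.1) were templated. In Ia low, of 16571 reads, these shares were 78.8% (76.9 to 80.7), 7.68% (6.51 to 8.99) and 10.8% (9.44 to 12.3). At equal length, uridine thus took a larger share in Ia low, with a ratio of 1.10. This ratio is not on one scale with the 1.60 over all reads, because a share of 71.5% cannot rise 1.60-fold. The 2 ratios therefore do not show how much of the difference goes with length. The shares at 1 length add up to the whole, so those of the other ends are not separate results. The 23 nt miR-26b-5p reads ended in 1 uridine in 37.1% (33.8 to 40.5) and 46.9% (40.8 to 53.1), and in 1 adenine in 52.9% (49.4 to 56.4) and 45.4% (39.3 to 51.6).

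More uridine in Ia low was common to many miRNAs. Among 89 arms with 1000 reads or more in each library, the share with 1 untemplated uridine was higher in Ia low in 40.4%, by a widened interval of the ratio that excluded 1, and lower in 4 of the arms, and both miR-26 5p strands were among the higher ones. The median ratio over the arms with any such read in Ia high was 1.29, and miR-26a-5p ranked 26 and miR-26b-5p 27 by this ratio. The share with any untemplated end was higher by the same rule in 44.9% and lower in 7 of the arms, again with both strands among the higher ones. By its uridine share itself miR-26a-5p ranked 26 of 89 in Ia high and 17 in Ia low, against medians of 4.63% and 7.58%. By adenine, miR-26b-5p ranked 10 and 11, against medians of 3.67% and 3.43%. Per read with 1 adenine, miR-26a-5p had 4.86 reads with 1 uridine in Ia high and 8.73 in Ia low, and miR-26b-5p 0.531 and 0.809, while the median over the 80 arms with both kinds of tail was 1.16 and 2.03. Which tails can be seen depends on the next base of each hairpin, so levels of different arms are not on one scale.

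**Figure D4:**
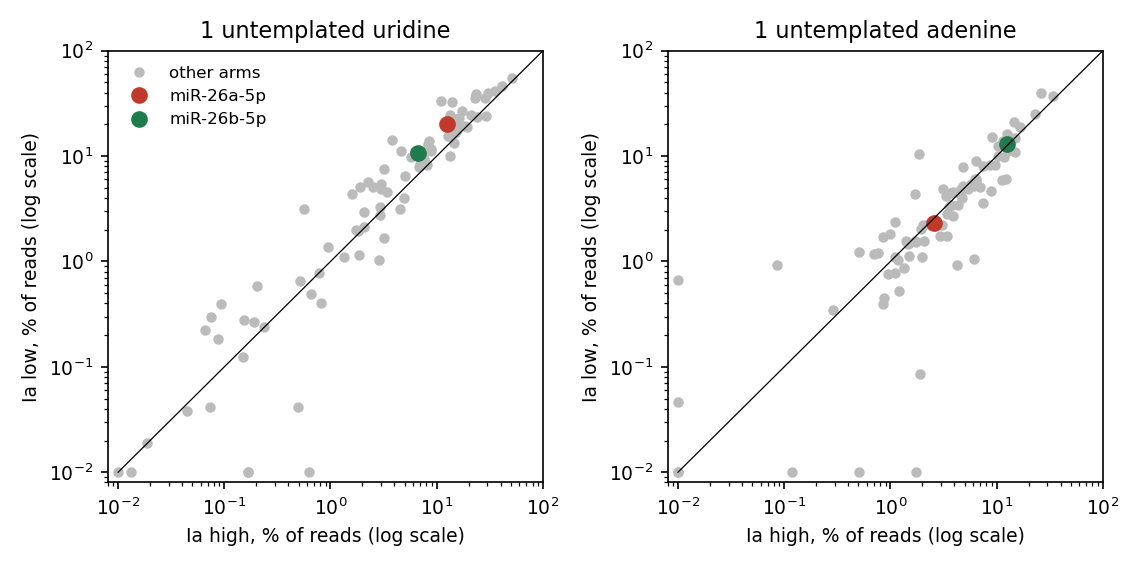
Share of reads with 1 untemplated uridine (left) or 1 untemplated adenine (right) in Ia high against Ia low (log axes, line of equal shares) for the 89 arms with 1000 reads or more in each library. Arms under 0.01% are drawn at 0.01%. Both miR-26 strands lie above the line for uridine and close to it for adenine.

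mRNA fragments among the tags gave a coarse measure of host, target and enzyme genes. Distinct tags of 20 to 30 nt that matched 1 protein-coding gene were counted once each and scaled to a common total. A gene was measured when its fragments in the 2 libraries added up to at least 10. They are pieces of mRNA of miRNA size, not a measurement of intact mRNA. The 2-fold rule was a ratio of at least 2-fold with an interval that excluded 1. By it 14.9% of 6933 genes differed, and the median log2 ratio was -0.14.

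The host genes encode phosphatases of the C-terminal domain of RNA polymerase II. Ctdsp2, which holds Mir26a-2, had 53 fragments in Ia high and 31 in Ia low, a ratio of 1.41 (0.878 to 2.24). Ctdsp1, which holds Mir26b, had 47 and 24, a ratio of 1.23 (0.722 to 2.06). Ctdspl, which holds Mir26a-1, had 0 and 1, under the minimum of 10. Neither measured host differed by the rule, beside 14.9% of all genes.

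Of 18 genes described as miR-26 targets, 11 had enough fragments, none was higher and 2 were lower in Ia low, beside 6.35% and 8.52% of all genes. The median log2 ratio of the 11 was -0.29. Ezh2, the histone methyltransferase of the Polycomb complex that methylates H3K27, had 39 fragments in Ia high and 6 in Ia low, a ratio of 0.372 (0.129 to 0.885). Ccnd2, cyclin D2, which drives cells from G1 toward DNA synthesis, had 63 and 7, a ratio of 0.269 (0.104 to 0.587). The cell type markers given above also differed between the libraries, and their part in these ratios was not tested.

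The other 9 measured targets lay within the 2-fold limits or had intervals that held 1. Tet2 (110 and 58 fragments) and Tet3 (83 and 25), which oxidise 5-methylcytosine, had ratios of 1.28 (0.911 to 1.77) and 0.728 (0.446 to 1.15). Rb1, the retinoblastoma protein, had 102 and 52 fragments and a ratio of 1.23 (0.865 to 1.74). Map3k2 (95 and 32) and Gsk3b (70 and 34), both kinases, had ratios of 0.815 (0.528 to 1.23) and 1.17 (0.756 to 1.79). Adam17, the protease that sheds TNF, had 65 and 22 fragments and a ratio of 0.819 (0.481 to 1.35). Cdk6, a partner of D-type cyclins, had 26 and 11 and a ratio of 1.02 (0.456 to 2.14). Smad1 had 15 and 6 fragments and Hmga1 8 and 2, too few to place. Il6, the cytokine whose mRNA miR-26 is described to repress, had 1 and 0 fragments, under the minimum, as did Hmga2, Ccne1, Ccne2, Tdg, Lin28b and Ifnb1 with at most 6 each.

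Seed matches in 3' UTRs were searched on the sense strand of the longest annotated 3' UTR of each gene, as the 8mer TACTTGAA and, for genes without it, the 7mer TACTTGA it contains. The 8mer is present in 4.19% of 21021 genes with an annotated 3' UTR. Examples are shown for the 2 genes that were lower and for Rb1, with the match in capitals (GRCm38, minus strand, chr6:47530285-47530307 for Ezh2, chr6:127128924-127128946 for Ccnd2 and chr14:73196423-73196445 for Rb1).
Ezh2: atttgaataaagaaTACTTGAAc
Ccnd2: agttgtattcattgTACTTGAAg
Rb1: aagtacccatgtagTACTTGAAa
All 3 genes thus hold the same 8 letters and their ratios ran from 0.269 to 1.23. The measured targets Adam17, Cdk6, Gsk3b, Hmga1, Tet2 and Tet3 also held the 8mer, and none of them differed by the rule. Neither match was found in Smad1, or in Il6, Lin28b and Ifnb1, which were under the minimum of 10 fragments. Sites of Map3k2 are not reported here. Over all measured genes, 411 had the 8mer, of which 22 were higher and 43 lower, with a median log2 ratio of -0.19. Of 5980 genes with neither match, 398 were higher and 500 lower, with a median of -0.13. Genes with the 8mer have longer 3' UTRs, with a median of 2814 bases against 1402 for all measured genes. The measured genes were therefore split into 3 equal groups by 3' UTR length. Among the longest, the medians were -0.22 for 264 genes with the 8mer and -0.14 for 1699 with neither match. In the middle group they were -0.14 for 113 genes and -0.12 for 2053, and among the shortest -0.45 for 34 genes and -0.14 for 2228. No test was run on these medians.

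All 11 enzymes that act on RNA 3' ends had enough fragments, and their median log2 ratio was -0.31. None differed by the rule, beside 14.9% of all genes, and no test against that share was run. Tut4 had 55 fragments in Ia high and 16 in Ia low, a ratio of 0.704 (0.376 to 1.25). Tut7 (Zcchc6), the related uridylyltransferase, had 71 and 32, a ratio of 1.09 (0.695 to 1.68). Tent2 (Papd4), which adds adenines to miRNAs, had 20 and 10, a ratio of 1.21 (0.505 to 2.71). Neither Tut4 nor Tut7 differed by the rule, and both intervals held 1. The fragments do not measure enzyme protein or activity, and a link to the uridine share was not tested. Parn (18 and 2 fragments), a deadenylase, and Dis3l2 (10 and 1), an exonuclease for uridylated RNA, had ratios of 0.269 (0.0302 to 1.12) and 0.242 (0.00557 to 1.70). Both were lower by the same rule only when reads were counted in place of fragments. Their Ia low reads, 18 and 13, came from 2 fragments and 1 fragment and so were not independent counts. Eri1, another 3' exonuclease, had 34 and 11 fragments. Tent4b had 31 and 11, Mtpap 15 and 5, Tent4a 12 and 6, Pnpt1 10 and 3 and Tut1 8 and 4, with ratios from 0.726 to 1.21 and intervals that held 1.

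**Figure D5:**
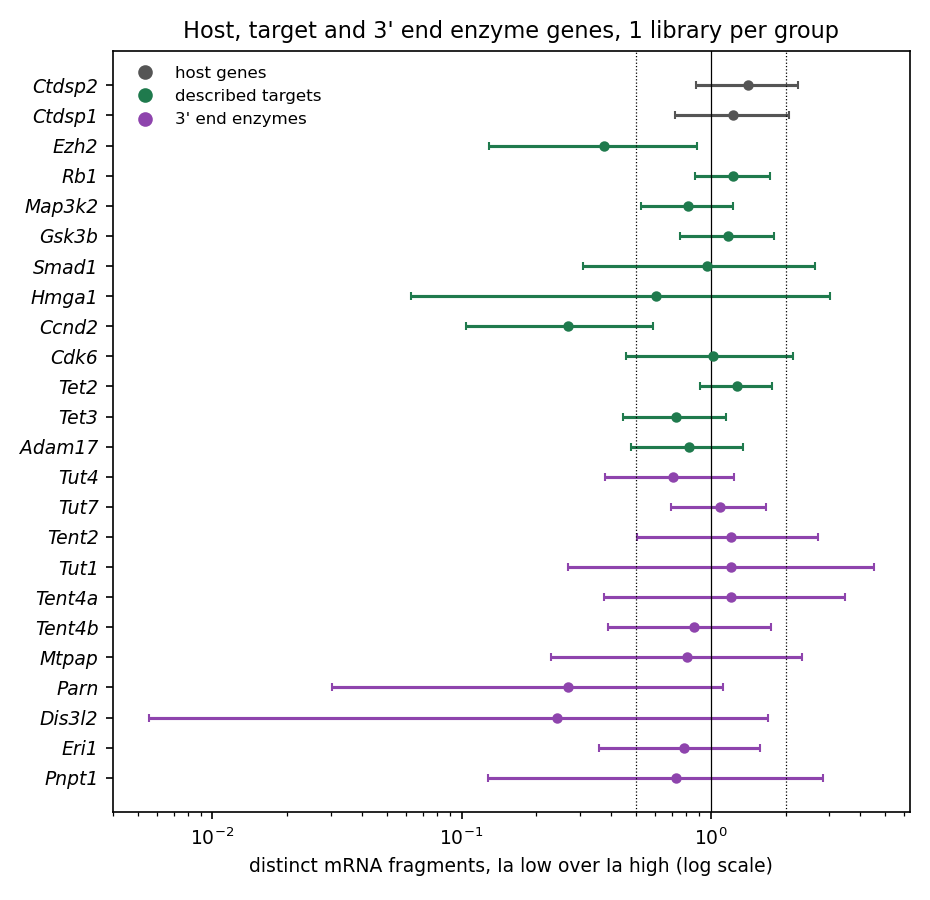
Ratio of distinct mRNA fragments, Ia low over Ia high (log axis), with exact 95% counting intervals, for the measured host genes, described miR-26 targets and 3' end enzymes. Solid line, equal; dotted lines, the 2-fold limits; only Ezh2 (0.372) and Ccnd2 (0.269) lie beyond a limit with an interval that excludes 1.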

How the data were processed

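Each deposited file lists the distinct sequences of 1 library with their read counts, unscaled as the authors left them, and, in another column, their length (unit other). Per the labels' protocols, RNA from sorted cells (mirVana) under 30 bases was gel-purified, ligated to adaptors, amplified for 12 cycles and sequenced on a Solexa instrument. How adaptors were trimmed, which reads were filtered and which build was used is not given in the sources used here. Exact matches of tags (18 to 30 nt) to 1178 hairpins of GENCODE M21 (GRCm38) were sought directly or after trimming up to 3 nt, the shortest trim first. Tags shared by different miRNAs were not counted (0.530% and 0.273% of miRNA reads), except that strands with the same main tag were merged. Arms were split at the hairpin's middle and named by RefSeq. The members, lists and tests were chosen with earlier results of these data known. Named were all arms of the family, the 5 arms most like miR-26a-5p, and each list gene with 10 fragments or more. Scripts used Python 3.11.15 with NumPy 2.4.6, SciPy 1.17.1 and Matplotlib 3.10.9 and were tested on simulated counts and tails. The simulated counts held no repeated reads of a tag, so they cannot show how the unwidened rule performs in these libraries. Alternatives covered scaling, length, trimmed matches, starts, tail rules and read counts. Long tags of 31 to 44 nt were not used here. A further gene described as a target is not reported here and is not among the 18 counted.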

Additional observations from a re-analysis of the deposited data

How the results depend on the processing

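With 1 library per group, no alternative could leave out a replicate. No paired analysis was possible because the groups share 1 number only and no test was run. The log2 ratio of miR-26a-5p was -0.00065 and became -0.87 scaled to all reads, 0.39 centred on the median arm, 0.053 with trimmed matches, -0.040 at 22 nt only, 0.057 weighted by length and 0.30 with each distinct tag counted once. That of miR-26b-5p, 0.26, became -0.60, 0.65, 0.39 and 0.33 under all-read scaling, centring, length weighting and distinct tags. With trimmed matches, miR-26a-5p reads per miR-26b-5p read in Ia high went from 7.45 to 7.04, still above the 6.22 of Ia low. The Mir26a-1 share in Ia high was 100% (3 of 3 reads) with the most common start of each 3p strand over both libraries, because for Mir26a-2 that is base 2, read in Ia low only. It was 33.3% from RefSeq base 1 only, added after seeing the data, which no Ia low read had, and 0% by 5p tags. Tails of 1 nt alone gave 16.3% and 23.9% untemplated miR-26a-5p in Ia high and Ia low, and 20.4% and 24.6% for miR-26b-5p. The share of miR-26a-5p with 1 uridine was 71.5% and 78.8% among reads of 23 nt, and 13.6% and 21.6% on cores of 22 nt, these 4 values added after seeing the data. Counting reads in place of fragments made 2 of the 3' end enzymes lower in place of 0. The other 41 of 63 alternatives stayed within the unwidened counting interval or the same count. By the widened interval of miR-26a-5p, -0.043 to 0.042, the value at 22 nt only would also have stayed inside. What depth limits is the 3p strands of miR-26a, with 22 reads in all, and genes under 10 fragments. The number of libraries limits every comparison.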
